A study of Mus musculus with 9 samples.

Results

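The natriuretic peptide and hypertrophy stress genes are a group of 8 genes named by symbol, *Nppa*, *Nppb*, *Ankrd1*, *Rcan1*, *Gdf15*, *Xirp1*, *Xirp2* and *Fhl1*. Of the 8, 7 have a row in each of the 3 deposited tables, of 14819 genes (Nrf1 with LacZ), 14986 genes (Nrf2 with LacZ) and 14908 genes (Nrf2 with Nrf1), and *Xirp1* was not analysed here. The RNA came from neonatal rat ventricular myocytes (NRVMs), cells isolated from the ventricles of newborn Sprague Dawley rats. The cells were cultured for 48 h, infected with adenovirus at an MOI of 50 and, per the paper's methods, collected 48 h after infection. The 3 groups of 3 libraries each differed in the coding region carried by the virus, which was lacZ (a bacterial enzyme, the control), mouse Nrf1 or mouse Nrf2, each driven by the CMV promoter in a vector that also encodes a red fluorescent protein. All groups, controls included, were thus infected cells with no further treatment, and no uninfected group was analysed here.

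Each table gives 1 mean normalized read count per group, computed by the authors over the libraries of the group, and no value per library. The spread between replicates cannot be computed from these means, so no SD or test of the groups is given, and every difference below is a ratio of 2 group means. A ratio past 1.5-fold in either direction, the fold part of the study's cutoff, is called higher or lower here, and a call is a size and not a test. For each table the background is every gene whose mean reaches 10 in one of its groups.

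Cardiomyocytes under load or neurohormonal stimulation return to a programme of genes that the fetal ventricle uses. Atrial and brain natriuretic peptide, the secreted hormones encoded by *Nppa* and *Nppb*, are the best known readouts of that programme, and they lower blood volume and vascular tone through receptors that make cGMP. The other genes of the group report different inputs: *Ankrd1* a titin-bound mechanosensor, *Rcan1* calcineurin activity, *Gdf15* cell stress, *Xirp1* and *Xirp2* the actin-binding Xin proteins of intercalated discs, and *Fhl1* a LIM protein of the sarcomere.

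With Nrf1, both natriuretic peptide genes differed from LacZ past 1.5-fold, and in opposite directions. *Nppb* was 1.77 times as high and *Nppa* was lower at 0.649 times the LacZ mean. *Gdf15* was lower as well, and *Ankrd1*, *Rcan1* and *Xirp2* were moderately higher without reaching 1.5-fold. With Nrf2, none of the 7 genes was past 1.5-fold from LacZ, and the largest ratio was that of *Fhl1*, at 1.34.

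**Figure D1:**
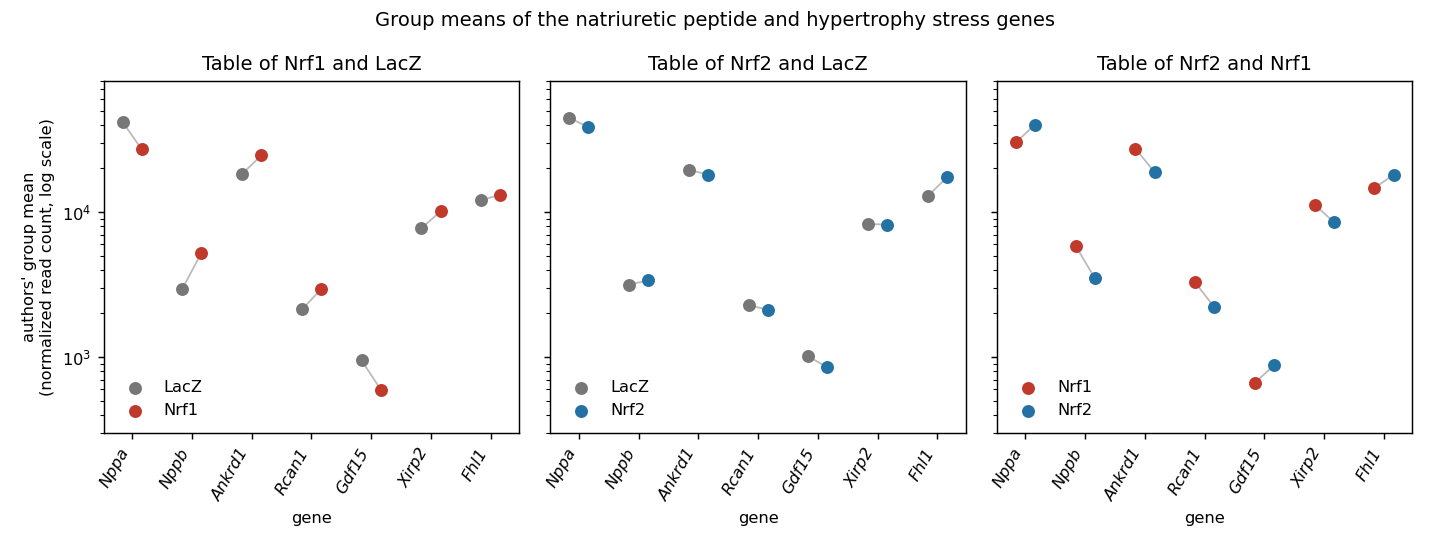
Group means of the 7 genes in the 3 deposited tables; the y axis is the authors' mean normalized read count on a log scale, each dot is 1 group and each line joins the 2 groups of a table. From LacZ to Nrf1 the *Nppa* mean goes down and the *Nppb* mean goes up, while from LacZ to Nrf2 the pairs lie closer together, with *Fhl1* showing the widest step.

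*Nppb* encodes the precursor of brain natriuretic peptide, which ventricular myocytes secrete under wall stress. Its authors' mean was 2965 in LacZ and 5240 in Nrf1 samples, a log2 ratio of 0.82. In the table for Nrf2 its mean was 3166 in LacZ and 3378 in Nrf2 samples, a log2 ratio of 0.09. Set directly against each other, Nrf2 samples had a mean of 3510 and Nrf1 samples one of 5846, a log2 ratio of -0.74. The *Nppb* mean was thus elevated in Nrf1 samples against both of the other groups, and the LacZ and Nrf2 means were close.

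*Nppa* encodes the precursor of atrial natriuretic peptide, which ventricles express before birth and again in hypertrophy. Its authors' mean was 41707 in LacZ and 27089 in Nrf1 samples, a log2 ratio of -0.62 that lies just past the limit, 1.54-fold lower. With Nrf2 the mean was 38548 beside 44534 in LacZ, a log2 ratio of -0.21. Nrf2 samples at 40055 were above Nrf1 samples at 30223 in the table for that pair, a log2 ratio of 0.41. Nrf1 samples had the lowest *Nppa* mean of the 3 groups, and Nrf2 samples lay between Nrf1 and LacZ.

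The balance of reads between the genes therefore differed between groups. LacZ samples held 14.1 normalized *Nppa* reads per *Nppb* read, Nrf1 samples 5.17 and Nrf2 samples 11.4. These are ratios of reads that are not corrected for transcript length, so only their change between groups can be read. The reads of *Nppb* relative to *Nppa* were 2.72 times as many with Nrf1 as with LacZ and 1.23 times as many with Nrf2 as with LacZ. A ratio of genes within a group does not depend on how a table was scaled.

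In the mouse annotation (GRCm38.p6) *Nppb* and *Nppa* are adjacent genes, and the order of genes in the rat genome was not analysed here. Of the 5 protein-coding genes on either side of the pair in mouse, 6 of 10 were matched by symbol in the tables. With Nrf1, 1 of the 6 was past 1.5-fold from LacZ, beside 30.0% of background genes. It was *Plod1*, a lysyl hydroxylase of collagen, with a log2 ratio of -0.77. *Clcn6*, the chloride transporter gene next to *Nppa*, had log2 ratios of -0.14 with Nrf1 and -0.41 with Nrf2. *Mfn2*, a gene for mitochondrial fusion, had -0.20 with Nrf1 and -0.29 with Nrf2. None of the 6 neighbours was past 1.5-fold in the comparison of Nrf2 with LacZ, beside 20.7% of background genes. Their log2 ratios there ran from -0.47 to 0.02. With 6 genes, neither count is read as particular to the region.

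*Ankrd1* encodes a cardiac ankyrin repeat protein that binds titin and also acts in the nucleus. The authors' mean of *Ankrd1* was 18329 in LacZ and 24538 in Nrf1 samples, a log2 ratio of 0.42. In the table for Nrf2 the means were 19571 in LacZ and 18141 in Nrf2 samples, a log2 ratio of -0.11. Nrf2 samples at 18850 were below Nrf1 samples at 27376, a log2 ratio of -0.54 that stays just under the limit at 1.45-fold lower. As for *Nppb*, Nrf1 samples had the highest mean, but the Nrf2 mean of *Ankrd1* was below that of LacZ where for *Nppb* it was above.

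*Xirp2* encodes a Xin actin-binding repeat protein of intercalated discs and Z-discs. For *Xirp2* the authors' mean was 7743 in LacZ and 10096 in Nrf1 samples, a log2 ratio of 0.38. With Nrf2 the means of 8269 in LacZ and 8202 in Nrf2 samples gave a log2 ratio of -0.01, the closest to 0 of the 7 genes. Between Nrf2 at 8523 and Nrf1 at 11264 the log2 ratio was -0.40. The *Xirp2* mean was thus above LacZ with Nrf1 and level with it with Nrf2.

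*Fhl1* encodes a four-and-a-half LIM domain protein that binds titin and takes part in hypertrophic signalling. LacZ samples had an authors' mean of 12085 and Nrf1 samples one of 13164, a log2 ratio of 0.12. With Nrf2 the mean was 17344 beside 12905 in LacZ, a log2 ratio of 0.43. Nrf2 samples at 18022 were above Nrf1 samples at 14687, a log2 ratio of 0.30. *Fhl1* was the gene of the group with a higher ratio to LacZ for Nrf2 than for Nrf1 and both ratios above 1.

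*Rcan1* encodes an inhibitor of the phosphatase calcineurin, and 1 of its promoters is itself switched on by calcineurin and NFAT. Its authors' mean was 2132 in LacZ and 2930 in Nrf1 samples, a log2 ratio of 0.46. With Nrf2 the means were 2277 in LacZ and 2128 in Nrf2 samples, a log2 ratio of -0.10. In the table for the factors the means were 2211 for Nrf2 and 3269 for Nrf1, a log2 ratio of -0.56, or 1.48-fold lower. The reads were counted per gene, so the calcineurin-responsive transcript is not separated from the other *Rcan1* transcripts.

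*Gdf15* encodes a secreted member of the TGF-beta superfamily that stressed cells release under the control of Atf4, Chop and p53. Its authors' mean was 948 in LacZ and 596 in Nrf1 samples, a log2 ratio of -0.67, or 1.59-fold lower. With Nrf2 it was 849 beside 1012 in LacZ, a log2 ratio of -0.25. In the direct table Nrf2 samples had a mean of 882 and Nrf1 samples one of 665, a log2 ratio of 0.41. *Gdf15* and *Nppa* had nearly equal log2 ratios in each of the 3 comparisons, and both were lowest with Nrf1 and intermediate with Nrf2.

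Against the background, 3 of 7 genes were past 1.5-fold with Nrf1 over LacZ, where 30.0% of all 11453 background genes were. By direction, the share of the background was 11.9% for higher, where 1 of 7 genes stood, and 18.1% for lower, where 2 of 7 stood. With Nrf2 over LacZ 0 of 7 genes were past the limit, beside 20.7% of 11630 background genes. With Nrf2 over Nrf1 1 of 7 genes was lower, *Nppb*, beside 5.16% of 11514 background genes, and 0 of 7 were higher, beside 12.3%. With 7 genes, 1 gene more or less moves these shares widely, and none of the counts is read as particular to the group. At 2-fold 0 of 7 genes were past the limit in any comparison, beside 14.0%, 8.95% and 7.10% of background genes for Nrf1 over LacZ, Nrf2 over LacZ and Nrf2 over Nrf1. At a limit of 25%, the larger mean over the smaller, 6, 1 and 6 of 7 genes were past it, beside 52.8%, 41.2% and 39.1% of background genes, and *Fhl1* was the 1 gene for Nrf2 over LacZ. The median log2 ratio of the 7 genes was 0.38 with Nrf1 over LacZ, -0.10 with Nrf2 over LacZ and -0.40 with Nrf2 over Nrf1, while the median over all background genes was 0.00 in each comparison. The 2 comparisons with LacZ share their LacZ libraries, and each comparison with Nrf1 shares its Nrf1 libraries with the other.

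**Figure D2:**
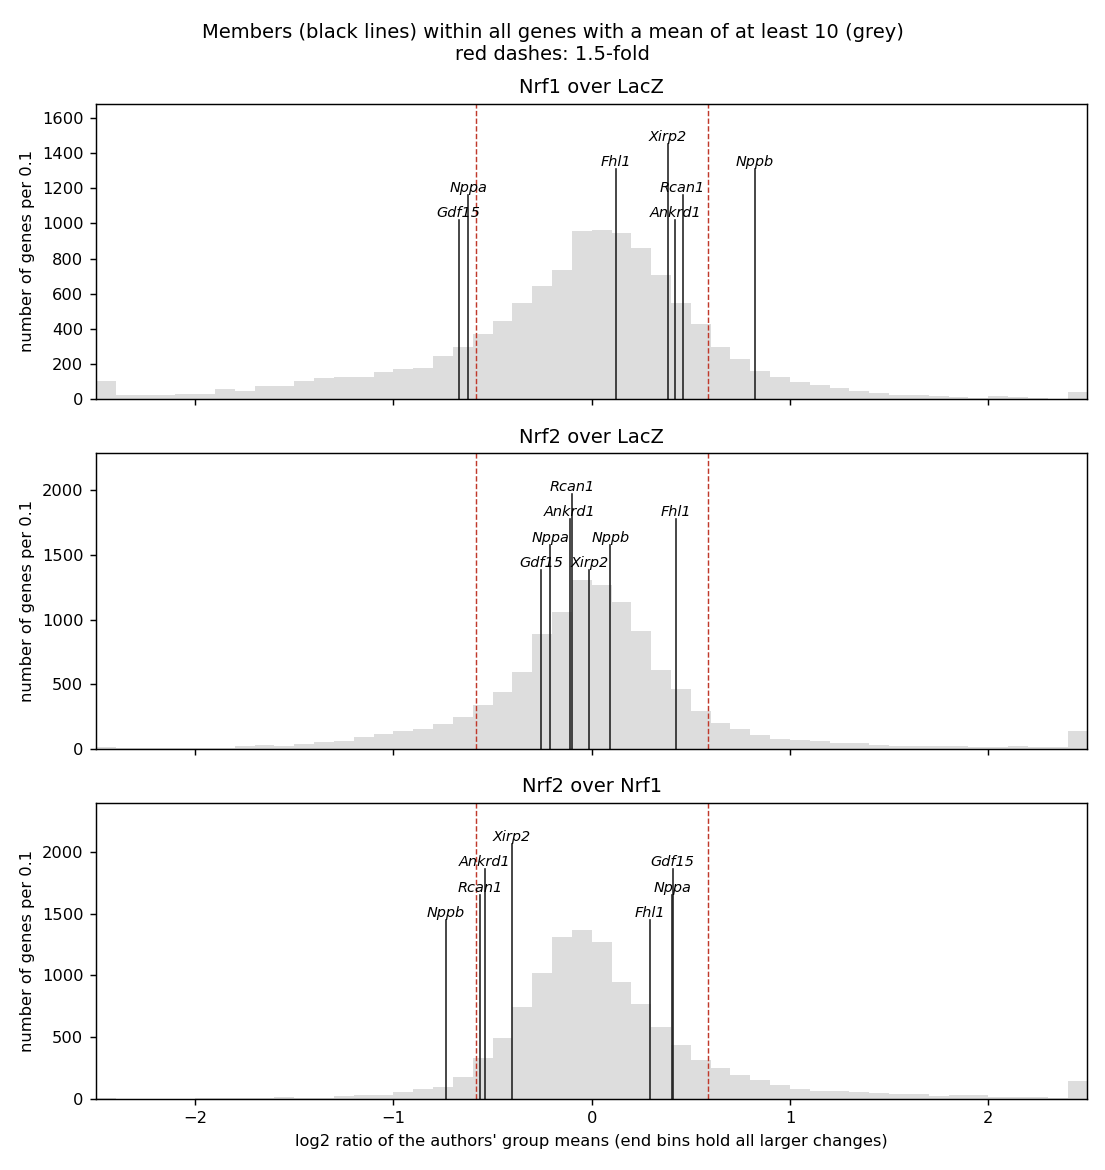
Log2 ratios of the 7 genes (black lines, x axis) within the distribution of all background genes (grey bars, number of genes per step of 0.1 on the y axis), for the 3 comparisons; red dashes mark 1.5-fold. *Nppb* stands to the right and *Nppa* and *Gdf15* to the left of the dashes with Nrf1 over LacZ, all 7 genes lie between the dashes with Nrf2 over LacZ, and *Nppb* alone is past them with Nrf2 over Nrf1.

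The position of single genes among well measured genes gave the same picture. Of 8562 genes whose mean reaches 100 in Nrf1 or LacZ samples, 502 had a higher log2 ratio of Nrf1 over LacZ than *Nppb*, and 834 had a lower one than *Gdf15*. With Nrf2 over LacZ, 1096 of 8673 such genes had a higher log2 ratio than *Fhl1*. With Nrf2 over Nrf1, 183 of 8657 such genes had a lower log2 ratio than *Nppb*, 414 a lower one than *Rcan1* and 472 a lower one than *Ankrd1*. Those 3 genes therefore lay further out in the direct comparison of the factors than in the comparison of Nrf2 with LacZ.

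Genes with nearly the same pair of log2 ratios over LacZ were looked up among 8290 genes whose mean reaches 100 in some group of each table, by Euclidean distance over the 2 ratios. For *Nppb* the nearest were *Skiv2l*, *Sharpin* and *Tcta*, at distances of 0.011, 0.029 and 0.034. For *Nppa* they were *Plcl2*, *Il17rc* and *RGD1309104*, at distances up to 0.0078. For *Ankrd1* they were *Zfp445*, *Pfkfb2* and *Cyfip2*, and for *Rcan1* they were *Tmem199*, *Emc10* and *Sfrp1*. For *Gdf15* they were *LOC683722*, *P3h4* and *Tusc3*, for *Xirp2* *Inpp5e*, *Wdr47* and *Rab29*, and for *Fhl1* *Ppm1b*, *RGD1305455* and *RGD1307704*. A pair of ratios from 3 groups is a short profile that many genes share, so likeness by this measure is common.

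The group means were put beside 8 lists of related genes, described by counts and medians only, and a gene counts as measured where it belongs to the background. Of 14 measured genes for the processing, receptors and cGMP signalling of natriuretic peptides, 6 were lower and 1 was higher with Nrf1. Of background genes, 18.1% were lower and 11.9% higher in that comparison with LacZ. The median log2 ratio of the 14 genes was -0.32. *Corin*, the protease that cuts the precursor of atrial natriuretic peptide, had a mean of 112 in LacZ and 67.4 in Nrf1 samples, a log2 ratio of -0.73. *Npr1*, the receptor for both cardiac peptides, had a log2 ratio of -0.40, and the clearance receptor *Npr3* one of 0.33. *Npr2*, the receptor for the C-type peptide, was lower with each factor, with log2 ratios of -1.03 for Nrf1 and -0.97 for Nrf2.

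The proteases that degrade natriuretic peptides parted. *Mme*, which encodes neprilysin, was lower with Nrf1 at a mean of 287 beside 739 in LacZ, a log2 ratio of -1.36, and *Ide*, the insulin-degrading enzyme, was higher at 4113 beside 1714, a log2 ratio of 1.26. With Nrf2 the log2 ratios were -0.59 for *Mme* and 0.49 for *Ide*. *Pde5a*, a phosphodiesterase that breaks down cGMP, had log2 ratios of -1.18 with Nrf1 and 0.91 with Nrf2, calls in opposite directions. With Nrf2, 2 of the 14 genes were lower and 1 was higher, beside 10.9% and 9.78% of background genes. Their median was -0.05. *Furin* had log2 ratios of -0.08 with Nrf1 and 0.07 with Nrf2, and *Nppc*, which encodes the C-type peptide, had means under 10 in every group.

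Calcineurin dephosphorylates NFAT, which then enters the nucleus and switches on hypertrophy genes, *Rcan1* among them. Of 18 genes of this pathway, 3 were higher and 2 were lower with Nrf1, and 2 were higher and 2 were lower with Nrf2. In either direction, 30.0% and 20.7% of background genes were past the limit. The medians of the pathway were 0.15 and 0.08. The catalytic subunits *Ppp3ca* and *Ppp3cb* had log2 ratios of -0.20 and -0.11 with Nrf1 and -0.16 and -0.03 with Nrf2. *Rcan2*, a relative of *Rcan1*, was higher with both factors, with log2 ratios of 0.69 for Nrf1 and 1.00 for Nrf2, unlike *Rcan1* itself, which was just below LacZ with Nrf2. *Chp1*, a calcineurin B homologue, had log2 ratios of 0.99 and 0.59, and *Akap5*, an anchoring protein for calcineurin, 1.09 and 0.24. *Nfatc4* was lower with both, at -0.96 and -0.65.

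Among 21 measured partners of titin, the Z-disc and the intercalated disc, 3 were higher and 2 were lower with Nrf1, with a median log2 ratio of 0.06. With Nrf2 5 were higher and 1 was lower of 20 measured, with a median of 0.28. The background shares past the limit in either direction were 30.0% with Nrf1 and 20.7% with Nrf2. *Tcap*, the telethonin that caps titin at the Z-disc, went from a mean of 261 in LacZ to 40.9 in Nrf1 samples, a log2 ratio of -2.68, and had one of -1.28 with Nrf2. *Trim54*, a muscle RING finger ubiquitin ligase, was higher with both factors, at 1.14 and 1.91. *Ankrd23*, a relative of *Ankrd1*, was measured at low means of 22.6 in LacZ and 49.1 in Nrf1 samples, a log2 ratio of 1.12. Its log2 ratio with Nrf2 was 0.59, just past the limit. *Fhl2*, a relative of *Fhl1*, had log2 ratios of -0.03 with Nrf1 and 0.00 with Nrf2, and *Fhl3* had -0.75 and -0.32. *Murc*, a caveolar protein of muscle, was higher with Nrf2, at 0.64, and had 0.47 with Nrf1.

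**Figure D3:**
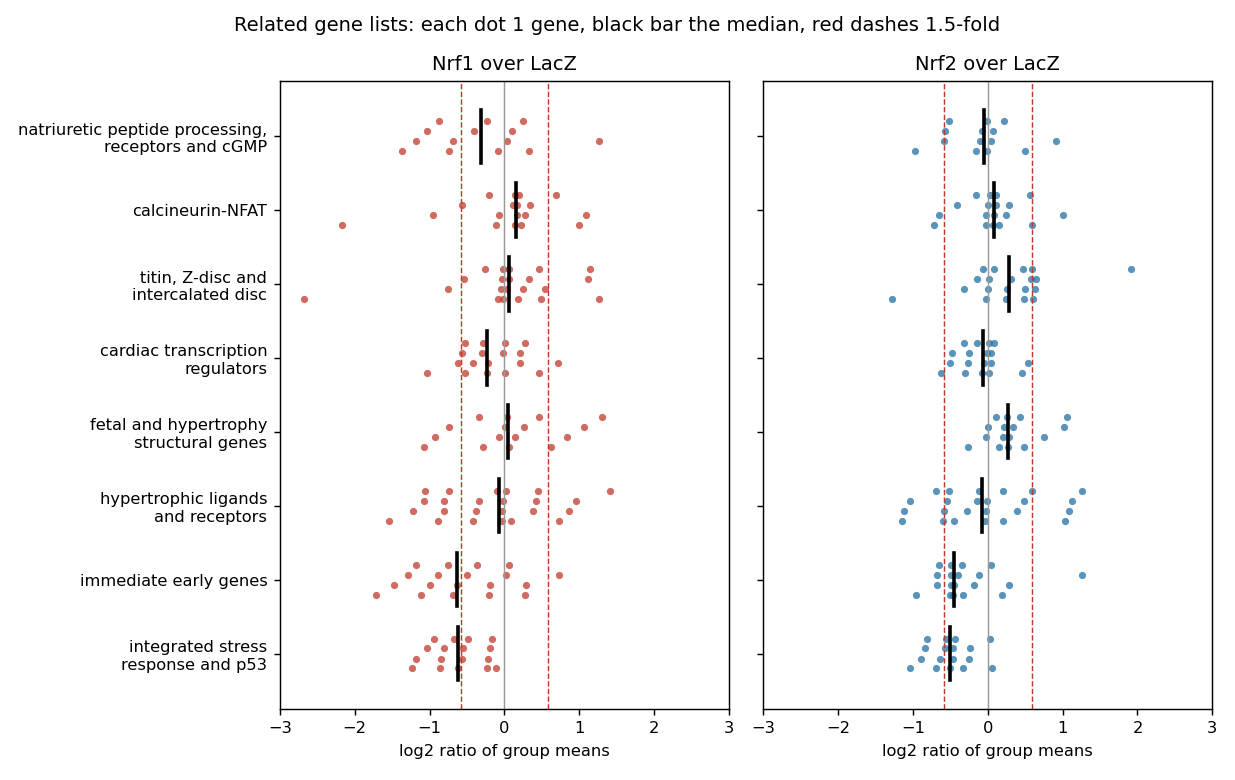
Log2 ratios of group means (x axis) for the measured genes of the 8 related lists with Nrf1 over LacZ (left) and Nrf2 over LacZ (right); each dot is 1 gene, black bars are list medians and red dashes mark 1.5-fold. The medians of the immediate early list (-0.64 and -0.46) and of the list for the integrated stress response and p53 (-0.62 and -0.51) lie furthest to the left in both panels.

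The structural genes of the fetal programme differed from LacZ in both directions. Of 16 genes, 4 were higher and 3 were lower with Nrf1, beside 11.9% and 18.1% of background genes, with a median of 0.05. With Nrf2 3 were higher and 0 were lower, beside 9.78% and 10.9% of background genes, with a median of 0.26. *Acta1*, the skeletal actin that marks hypertrophy, was higher with both factors, from 12772 in LacZ to 26733 with Nrf1 and from 13636 to 27700 with Nrf2, log2 ratios of 1.07 and 1.02. *Myh7*, the slow myosin heavy chain, was lower with Nrf1, at 6887 beside 14444 in LacZ (log2 ratio -1.07), and had a log2 ratio of -0.26 with Nrf2. *Des*, which encodes desmin, had log2 ratios of 1.31 and 0.75, and *Tnni1*, the fetal troponin I, -0.93 and 0.44. *Slc2a1*, the glucose transporter of the fetal heart, was higher with Nrf2, at 1.06, and had 0.46 with Nrf1. The means of *Acta1* and *Nppb* were both above LacZ with Nrf1, whereas those of *Myh7* and *Nppa* were both below it.

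Regulators of the fetal programme include transcription factors that bind promoters of these genes, their coactivators and histone deacetylases that hold them back. Of 18 measured regulators, 1 was higher and 2 were lower with Nrf1, where 30.0% of background genes were past the limit, and 0 were higher and 1 was lower with Nrf2, where 20.7% were. *Hand2* was higher with Nrf1 at a log2 ratio of 0.72, while *Nfix* and *Hdac5* were lower at -1.03 and -0.62. With Nrf2 the ratios of *Hand2*, *Nfix* and *Hdac5* were 0.46, -0.51 and -0.48. *Klf15*, a brake on hypertrophy, was lower with Nrf2, at -0.63, and stayed just under the limit with Nrf1, at -0.57. *Gata4*, *Srf* and *Nkx2-5* had log2 ratios of 0.21, 0.01 and 0.46 with Nrf1 and -0.05, 0.01 and 0.04 with Nrf2. *Mef2a*, *Gata6* and *Mef2d* had -0.53, -0.52 and 0.28 with Nrf1 and -0.32, -0.31 and 0.08 with Nrf2. The median of the 18 regulators was -0.23 with Nrf1 and -0.06 with Nrf2.

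Of 24 measured hypertrophic ligands and receptors, 4 were higher and 8 were lower with Nrf1, and 5 were higher and 6 were lower with Nrf2. Where a mean of 100 was required, fewer of the genes remained, and of these 2 were higher and 5 were lower with Nrf1. *Edn1*, which encodes endothelin, had log2 ratios of -0.80 with Nrf1 and -1.12 with Nrf2, and *Igf1* had -1.07 and -1.15. *Nrg1*, which encodes neuregulin, had -1.23 and -0.69. The alpha-1A adrenergic receptor gene *Adra1a* was higher with both factors, at 0.95 and 1.09, and *Fgfr1* too, at 0.73 and 0.60. The endothelin receptor gene *Ednrb* was lower with Nrf1, at -1.55, and higher with Nrf2, at 1.26. Of 19 immediate early genes, Nrf1 samples had 10 lower and 1 higher, and Nrf2 samples 4 lower and 1 higher. For this list and the ligands and receptors, the background shares were 18.1% lower and 11.9% higher with Nrf1. With Nrf2 they were 10.9% lower and 9.78% higher. *Egr1* had log2 ratios of -1.18 and -0.97 and *Nr4a3* of -1.71 and -0.68, while *Fosl1* was higher with both, at 0.73 and 1.26.

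The list drawn up around the known inducers of *Gdf15* had low ratios too. Of 17 measured genes of the integrated stress response and of p53, 9 had a lower and 0 a higher mean with Nrf1, beside 18.1% and 11.9% of background genes. With Nrf2 6 were lower and 0 were higher, beside 10.9% and 9.78% of background genes. *Asns*, asparagine synthetase, had log2 ratios of -1.24 and -0.89, *Trib3* of -1.18 and -1.05 and *Ddit3*, which encodes Chop, of -1.03 and -0.81. *Atf4* itself had -0.55 and -0.51, and *Cdkn1a*, a p53 target, -0.22 and 0.05. In the direct comparison of the factors 0 of the 17 were past 1.5-fold, and the median was 0.12.

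The culture holds cells other than cardiomyocytes, and their markers differed between the same groups. With Nrf1 over LacZ 10 of 12 fibroblast, 11 of 12 leukocyte, 7 of 10 endothelial and 5 of 10 smooth muscle and pericyte markers were lower, and their summed means were 0.504, 0.501, 0.595 and 1.34 times those of LacZ, so that the smooth muscle sum went up while 5 of its markers were lower. With Nrf2 over LacZ 8 of 12, 11 of 12, 6 of 10 and 2 of 10 were lower. Their summed means were 0.518, 0.494, 0.598 and 1.19 times those of LacZ. Of background genes, 18.1% were lower with Nrf1 and 10.9% with Nrf2. The median log2 ratio of the fibroblast markers was -1.82 with Nrf1 and -0.94 with Nrf2, so their sums are closer than their medians. With Nrf2 over Nrf1 8 of 12 fibroblast markers were higher and 2 were lower, with a median of 0.91. Of the leukocyte, endothelial and smooth muscle markers, 4 of 11, 1 of 10 and 4 of 9 were higher there and 0 were lower. Cardiomyocyte markers, of which none is listed at 0, were present at a summed mean of 118712 in LacZ samples and 96012 in Nrf1 samples, and at 126764 and 137194 in LacZ and Nrf2 samples. Of these 12 markers, 4 were lower and 1 was higher with Nrf1, with a median log2 ratio of -0.40 and a range from -1.84 for *Mb* to 0.83 for *Ryr2*. With Nrf2 0 of 12 were past the limit, and the median was 0.14. With Nrf2 over Nrf1 6 of the 12 cardiomyocyte markers were higher and 0 were lower, with a median of 0.56. In that comparison 12.3% of background genes were higher and 5.16% lower. *Myh6*, *Myh7* and *Pln* stand in both this list and that of fetal genes. In bulk RNA, fewer cells of a type and less of a transcript per cell cannot be told apart, and the part of the cell mixture in the ratios of the 7 genes was not tested.

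Set against the median cardiomyocyte marker instead of all genes, an alternative chosen after the data were seen, the log2 ratios with Nrf1 over LacZ became 1.22 for *Nppb*, 0.86 for *Rcan1*, 0.82 for *Ankrd1* and 0.79 for *Xirp2*, all past 1.5-fold. *Nppa* and *Gdf15*, at -0.22 and -0.27, then no longer passed it. With Nrf2 over Nrf1 the same 4 genes were lower on that scale, from -0.96 to -1.29, while *Nppa*, *Gdf15* and *Fhl1* changed sign, to -0.15, -0.15 and -0.26. With Nrf2 over LacZ no gene passed the limit on that scale either, and *Nppb* changed sign, from 0.09 to -0.05. The order of the genes in each comparison does not depend on this choice. On that scale the marker median of the comparison (-0.40, 0.14 or 0.56) is subtracted from every gene alike, background genes included. The share of background genes past the limit on it was not computed, and the shares given above do not apply. The number of genes past the limit on that scale is thus not read as particular to the group.

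**Figure D4:**
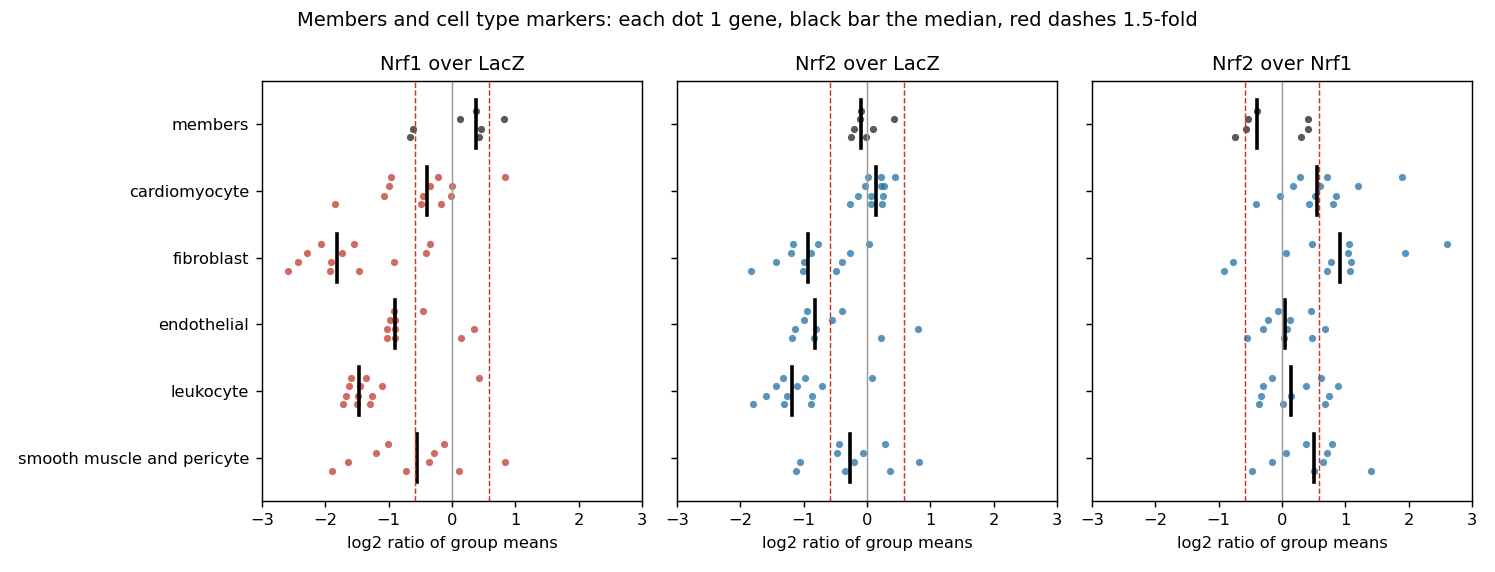
Log2 ratios of group means (x axis) for the 7 genes (top row, black dots) and for the measured markers of 5 cell types in the 3 comparisons; each dot is 1 gene, black bars are medians and red dashes mark 1.5-fold. With Nrf1 over LacZ the median of the 7 genes is 0.38 and that of the cardiomyocyte markers -0.40, and with Nrf2 over LacZ they are -0.10 and 0.14.

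The tables allowed the labels and the scaling to be checked in part. The mean of *Nfe2l2*, the gene for Nrf2, was 3475 in LacZ and 75066 in Nrf2 samples, and its reads include those of the virus as far as these align to the rat gene. The gene encoding Nrf1 was not analysed here. The means of a group differed between its 2 tables by a nearly constant factor, 1.07 for LacZ, 1.12 for Nrf1 and 1.04 for Nrf2. For each of the 7 genes the log2 ratio of Nrf2 over Nrf1 read from its own table was 0.008 below the difference of its ratios to LacZ, so the separate scaling of the tables did not alter the ratios given here. The total read count per library is not known from the tables, and the summed group means ran from 8894780 to 10407500.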

How the data were processed

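The 9 libraries, 3 in each group, were made from RNA of NRVMs infected with LacZ, Nrf1 or Nrf2 adenovirus. Per the paper's methods and the submitters' processing notes, 75-bp single-end reads were checked with FastQC 0.11.4, aligned to rat Rnor_6.0 with HISAT2 2.0.4, cleared of duplicates with SAMtools 0.1.18 and counted per gene with featureCounts 1.6.0. Duplicate removal without paired ends can also discard distinct fragments that share a start, and its effect on the counts used here was not tested. The strand setting of the counting is not given in the sources used here. The deposited signal is a normalized read count averaged by the authors within each group, scaled anew for each of 3 pairs of groups. The tables also hold fold changes, p-values and adjusted p-values of the authors' comparisons, which were not used. Columns of single samples left unused numbered 0. The authors' methods name edgeR 3.20.5 for the comparisons.

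Ratios of the group means were computed with Python 3.11.15, numpy 2.4.6 and pandas 2.3.3, on the log2 scale and without a pseudocount. Genes were matched by symbol. A call required that 1 of the group means reach 10 and that the ratio pass 1.5-fold. The calling rule was checked on simulated counts with Poisson spread only and 2-fold changes in genes whose mean reaches 100. That check does not bear on ratios near 1.5-fold or on the spread between replicates. No test between groups was made: the authors' p-values were left unused, and group means alone give no spread between replicates. The labels give a replicate number to each sample but do not say whether replicates are separate cultures, and they name the organism as mouse where cell type and strain are those of rat. The 8 genes, the 8 related lists and the 5 marker lists were chosen with earlier results of these data known. Named genes are the 7 measured genes, *Nfe2l2*, the 2 highest and 2 lowest ratios past 1.5-fold with a mean reaching 100 in each related list and comparison with LacZ, the 3 nearest genes of each of the 7, and mouse neighbours of *Nppa* and *Nppb*. Other genes were named for their role with their values in view. No rat sequence was used here.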

Additional observations from a re-analysis of the deposited data

How the results depend on the processing

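The number of the 7 genes past the limit moved with the limit itself. At 2-fold it was 0 for Nrf1 over LacZ and 0 for Nrf2 over Nrf1, and at 25% it was 6 for Nrf1 over LacZ, 1 for Nrf2 over LacZ, and 6 for Nrf2 over Nrf1. Re-centring on the median log2 ratio of genes whose mean reaches 100, which was 0.05, 0.01 and -0.03 in the 3 comparisons, a pseudocount of 1, no filter on low means and a minimum of 100 left the counts at 1.5-fold (3, 0 and 1) as they were, and so did the difference of the ratios over LacZ for Nrf2 over Nrf1. Re-centring on the median cardiomyocyte marker, chosen after the data were seen, gave 4 genes for Nrf1 over LacZ and 4 for Nrf2 over Nrf1. The background share was not computed for it. Of the 21 log2 ratios of single genes, 6 newly passed the limit and 2 no longer did on that scale. With re-centring on the median gene or a pseudocount of 1, 0 of 21 crossed it. For the related lists the genes past 2-fold were 27, 14 and 11 in the 3 comparisons, beside 59, 39 and 32 past 1.5-fold, and for the markers 17 and 9 with Nrf2 over LacZ and Nrf2 over Nrf1, beside 29 and 25. A minimum of 100 lowered some single lists by over 1.5 times against LacZ: with Nrf1 the ligands and receptors from 12 to 7, the titin partners from 5 to 3 and the leukocyte markers from 11 to 6, and with Nrf2 the leukocyte markers from 11 to 6. With Nrf2 over Nrf1 it did so for 4 lists, the calcineurin genes and the leukocyte markers to 1, the ligands and receptors to 2 and the immediate early genes to 3. The minimum of 100 also removes genes from the lists themselves, so these falls in number are not falls in the share past the limit. Background shares at that minimum were not computed. No paired analysis was possible because the tables hold group means with no value per replicate, and for the same reason no replicate could be left out. The spread between libraries, which these values do not show, limits what can be said of every call, that of *Nppb* included. *Nppa* and *Gdf15* also lie near 1.5-fold.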
